A study of Mus musculus with 12 samples.

Results

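The forkhead box O (FoxO) genes described here are 10 of the 55401 genes measured by RNA-Seq in whole mouse kidney: the factors *Foxo1* and *Foxo3*, and *Depp1*, *Ddit4*, *Irs2*, *Sesn1*, *Sesn3*, *Pik3ip1*, *Txnip* and *Ccng2*, which are known as FoxO targets in other settings. They were taken by gene symbol from a list drawn up with their response to treatment already known, so the difference between the treatment groups is a description for them: no p is given, and counts of members past a threshold stand only beside the same share over all genes. All 10 had identifiers that matched the GENCODE M21 annotation (mouse build GRCm38) with their version, and all 10 passed the filter on low counts.

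SK-124 is a small-molecule inhibitor of the salt-inducible kinases SIK2 and SIK3, enzymes that parathyroid hormone signaling turns down, and was used to find which kidney mRNAs depend on them. Male C57BL6 mice, 8 weeks old and with no stated mutation or transgene, received either vehicle (n = 6) or SK-124 at 40 mg/kg (n = 6) by intraperitoneal injection, and the kidney was taken after acute treatment. In its chronic kidney disease experiment the paper dissolved SK-124 in 15% hydroxypropyl β-cyclodextrin, given alone as vehicle. For these libraries in particular, the sources used here give neither the composition of the vehicle nor a collection time. Each mouse gave 1 library of 19244227 to 19771802 expected counts, which are reads assigned to genes with shared reads divided among them.

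FoxO proteins are transcription factors held in the cytoplasm by insulin signaling. When insulin or a growth factor activates phosphatidylinositol 3-kinase (PI3K), the kinase AKT phosphorylates FoxO proteins, which then bind 14-3-3 proteins and leave the nucleus; when the signal falls, as in fasting, FoxO proteins return and switch on genes for catabolism, stress resistance and cell cycle arrest. Several of those genes feed back on the pathway: *Irs2* restores insulin sensitivity, *Pik3ip1* restrains PI3K, and sestrins and *Ddit4* restrain mTORC1, the kinase complex that drives protein synthesis. FoxO activity is set largely by phosphorylation and location, which mRNA does not measure.

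Gene starts are shown first, because members with the largest differences and members with none of the searched motifs can be read side by side. RefSeq windows of 300 bases, from 250 before to 50 after the annotated start (GRCm38.p6), were found for 10 of 10 members, with a second start for *Sesn1*. They were searched on both strands for GTAAACA, the FoxO core site, for CAAAACA, the core of the insulin response sequence, for the cAMP response element TGACGTCA and for its shorter form TGACG, which lies within it. GTAAATA, a forkhead variant, was added after the *Depp1* sequence had been read. The part upstream of annotated exons is printed 5′ to 3′ on the strand of the gene, with motif matches in capitals and their first base counted from the start; a match on the other strand appears as its reverse complement.
Depp1, chr6:116650434-116650608, plus strand: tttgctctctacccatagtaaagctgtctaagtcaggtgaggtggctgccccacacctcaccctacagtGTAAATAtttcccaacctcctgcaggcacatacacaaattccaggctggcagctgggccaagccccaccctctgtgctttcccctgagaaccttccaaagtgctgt
Txnip, chr3:96557707-96557956, plus strand: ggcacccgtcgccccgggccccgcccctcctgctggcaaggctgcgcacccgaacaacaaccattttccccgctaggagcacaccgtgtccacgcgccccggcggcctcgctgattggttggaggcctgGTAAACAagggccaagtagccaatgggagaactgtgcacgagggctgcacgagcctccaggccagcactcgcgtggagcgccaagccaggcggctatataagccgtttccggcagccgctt
Irs2, chr8:11008930-11009179, minus strand: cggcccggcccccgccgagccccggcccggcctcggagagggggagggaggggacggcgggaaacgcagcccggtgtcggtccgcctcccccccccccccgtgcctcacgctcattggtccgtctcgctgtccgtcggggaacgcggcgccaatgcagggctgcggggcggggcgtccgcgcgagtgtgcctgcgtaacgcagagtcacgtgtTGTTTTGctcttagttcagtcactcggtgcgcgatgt
Sesn1, downstream start, chr10:41887189-41887438, plus strand: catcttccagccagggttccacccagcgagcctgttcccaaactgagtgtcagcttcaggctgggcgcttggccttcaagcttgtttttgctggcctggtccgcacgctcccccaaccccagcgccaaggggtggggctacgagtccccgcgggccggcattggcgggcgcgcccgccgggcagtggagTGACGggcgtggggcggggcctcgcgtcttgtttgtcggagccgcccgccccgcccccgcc
Ddit4, chr10:59951835-59952020, minus strand: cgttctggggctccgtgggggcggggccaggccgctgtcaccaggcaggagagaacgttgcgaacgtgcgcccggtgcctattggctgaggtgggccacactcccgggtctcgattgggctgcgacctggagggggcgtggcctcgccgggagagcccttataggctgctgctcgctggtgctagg

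Among these windows, *Txnip* held GTAAACA at position -121 on its own strand and *Depp1* held GTAAATA at -181. *Irs2* held CAAAACA on the opposite strand at -37, and *Ccng2* held it at -16, within an annotated exon. Positions count from RefSeq starts, which can differ from the GENCODE gene coordinates given below, as for *Irs2* (11008929 against 11008458). The upstream start of *Sesn1* had GTAAACA on the opposite strand at 22, whereas its downstream start had only TGACG at -61, and *Foxo3* had TGACG on the opposite strand at -64. No searched motif was found in the windows of *Ddit4*, *Sesn3*, *Pik3ip1* and *Foxo1*. Across all 32851 windows of this length, 3.65% held GTAAACA, 3.04% GTAAATA, 6.28% CAAAACA, 1.79% TGACGTCA and 20.8% TGACG. A match describes letters in the window, not binding, and a window without one says nothing about sites elsewhere.

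Of the 10 members, 9 had higher counts in SK-124–treated mice, led by *Depp1* and *Ddit4*, and *Sesn3* stood apart with a slightly lower mean and overlapping groups. By edgeR's quasi-likelihood test at an FDR under 0.05, where FDR is the p adjusted over all genes by the method of Benjamini and Hochberg, 9 of 10 members were called higher, where 10.8% of all 14159 genes tested were called higher, 13.5% lower and 24.4% in either direction. The 9 members also had every SK-124–treated mouse above every vehicle-treated mouse, which 6.32% of all genes tested had, while 6.65% had every treated mouse below and 13% were separate in either direction. Their choice used this contrast, so these counts describe the choice and are no test of the members, and the same holds wherever a member is said to be called or not. The median log2 fold change was 0.88 over the 10 members and -0.01 over all genes tested. Values below are normalized read counts (CPM, counts scaled to library size) with edgeR's TMM factors, and log2 fold changes are for SK-124 relative to vehicle with the standard error of the edgeR fit.

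**Figure D1:**
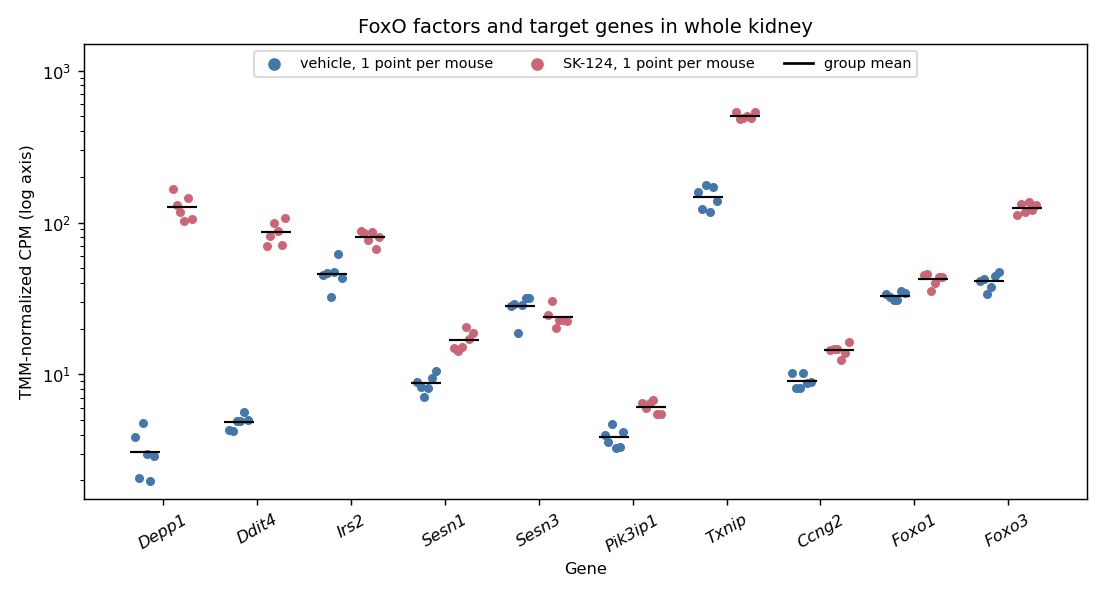
TMM-normalized CPM (log axis) of the 10 members in each of 6 vehicle-treated and 6 SK-124–treated mice, with points for mice and bars for the group means. *Depp1* lies at 1.99 to 4.75 CPM in vehicle-treated and 102 to 165 CPM in SK-124–treated mice, and only for *Sesn3* do the groups overlap.

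Among the factors themselves, *Foxo3* (ENSMUSG00000048756.11, chr10:42181841-42276755, minus strand) ranged from 33.9 to 46.9 CPM with a median of 41.9 in vehicle-treated mice, and from 111 to 137 CPM with a median of 125 in SK-124–treated mice. The groups were far apart, with means of 41.1 ± 4.71 and 125 ± 9.71 CPM (SD, n = 6 each) and a log2 fold change of 1.60 (SE 0.08), a 3.03-fold difference. *Foxo1* (ENSMUSG00000044167.6, chr3:52268336-52353221, plus strand), the best-known mediator of insulin action on hepatic gluconeogenic genes, ranged from 30.7 to 35.2 CPM with a median of 33.0 in vehicle-treated mice and from 35.6 to 45.5 CPM with a median of 43.9 in SK-124–treated mice. The highest vehicle-treated and the lowest SK-124–treated mouse nearly touched, and the log2 fold change was 0.36 (SE 0.07), from 32.9 ± 1.91 to 42.3 ± 3.78 CPM. With TPM (transcript abundance scaled to length and to a fixed total), the *Foxo1* groups overlapped and limma gave differences of 0.17 and 0.20 on the log2(TPM + 1) and log2(TPM + 0.1) scales, neither of them called.

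The remaining family members, *Foxo4* and *Foxo6*, were not called. *Foxo4* was at 14.3 ± 1.74 CPM in vehicle-treated and 14.7 ± 1.25 CPM in SK-124–treated mice (log2 fold change 0.04, FDR = 0.775, edgeR's quasi-likelihood test), and *Foxo6*, with at most 7 expected counts in any mouse, was too low to test. Levels of different genes were compared in TPM. *Foxo3* made up 42.6% ± 2.57 (SD, n = 6) of the summed FoxO TPM in vehicle-treated mice, with a range of 40.4% to 46.1%, and 65.8% ± 3.06 in SK-124–treated mice, with a range of 62.0% to 69.5%. The shares of *Foxo1* (24.4% to 15.9%) and *Foxo4* (32.2% to 18.0%) were correspondingly smaller with SK-124, while the summed FoxO level went from 14.8 ± 2.19 to 26.2 ± 3.62 TPM. In every vehicle-treated and every SK-124–treated mouse *Foxo3* was the most abundant of the 4 factors per length.

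**Figure D2:**
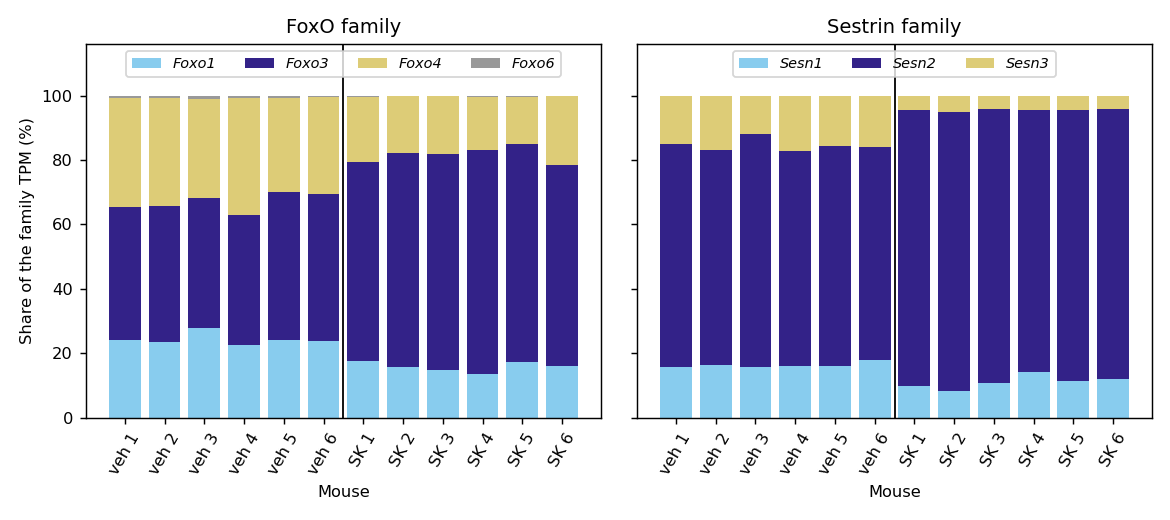
Share (percent) of the summed TPM of each gene family taken by its members in each of 6 vehicle-treated and 6 SK-124–treated mice. *Foxo3* takes 40.4% to 46.1% of the FoxO total with vehicle and 62.0% to 69.5% with SK-124, and *Sesn3* takes 4.05% to 5.11% of the sestrin total with SK-124.

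*Depp1* (ENSMUSG00000048489.12, chr6:116650609-116652794, plus strand) encodes a FoxO-induced protein linked to autophagy and reactive oxygen species. It had the largest difference of the members. Vehicle-treated mice ranged from 1.99 to 4.75 CPM with a median of 2.93, and SK-124–treated mice ranged from 102 to 165 CPM with a median of 124. Every SK-124–treated mouse was far above every vehicle-treated mouse, and the means of 3.09 ± 1.06 and 127 ± 24.4 CPM (SD, n = 6 each) gave a log2 fold change of 5.37 (SE 0.18), a 41.3-fold difference. *Depp1* lies inside *Rassf4*, a RAS-association domain gene on the opposite strand, without sharing exonic bases with it. *Rassf4* went from 3.24 ± 0.426 to 6.40 ± 0.935 CPM (log2 fold change 0.98, FDR = 8.39e-06, edgeR's quasi-likelihood test). The use of strand in counting is not given in the sources used here, and reads from *Rassf4* introns as a part of the *Depp1* values were not tested.

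*Ddit4* (ENSMUSG00000020108.4, chr10:59949669-59951834, minus strand), also known as REDD1, is a stress-induced inhibitor of mTORC1. It ranged from 4.21 to 5.64 CPM with a median of 4.95 in vehicle-treated mice and from 70.0 to 108 CPM with a median of 84.7 in SK-124–treated mice. The groups were again far apart, at 4.84 ± 0.528 and 86.4 ± 15.2 CPM, and the log2 fold change was 4.15 (SE 0.12), a 17.8-fold difference. The order of the treated mice was not that of *Depp1*: SK-124–treated mouse 1 was highest for *Depp1* and lowest for *Ddit4*.

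*Txnip* (ENSMUSG00000038393.14, chr3:96557957-96561883, plus strand) encodes an inhibitor of thioredoxin that also limits glucose uptake. It ranged from 118 to 176 CPM with a median of 149 in vehicle-treated mice and from 479 to 538 CPM with a median of 496 in SK-124–treated mice. Treated mice were tightly grouped above all vehicle-treated mice, with means of 148 ± 24.6 and 506 ± 26.8 CPM and a log2 fold change of 1.78 (SE 0.09). The antisense gene *Gm15441*, which spans *Txnip*, was at 2.60 ± 0.468 CPM with vehicle and 2.46 ± 1.05 CPM with SK-124 and was not called.

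**Figure D3:**
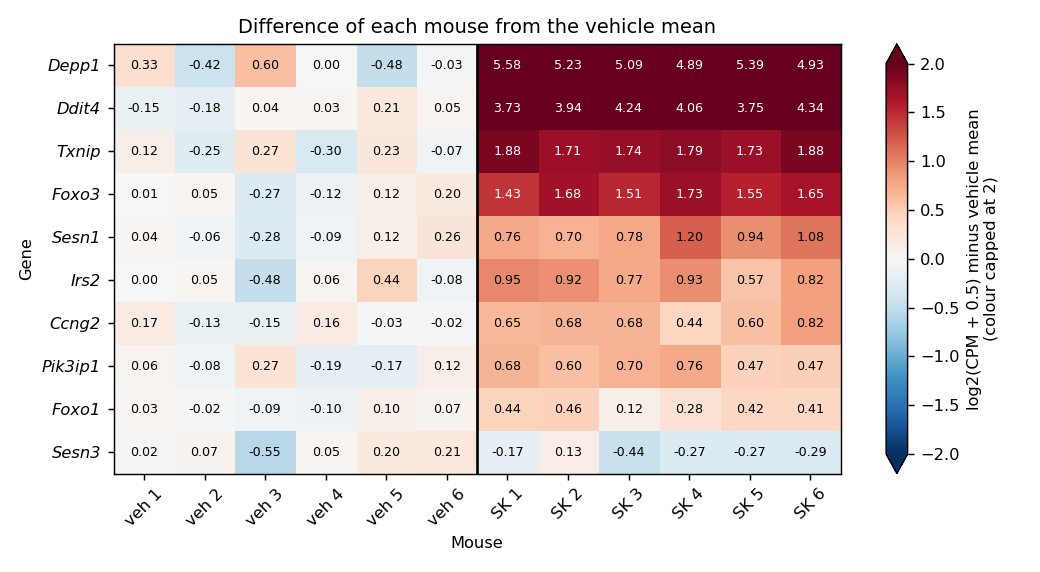
Log2 difference of each mouse from the vehicle mean, in log2(CPM + 0.5), for the 10 members (rows) in 6 vehicle-treated and 6 SK-124–treated mice (columns). *Depp1* lies between 4.89 and 5.58 in the treated mice, *Ddit4* between 3.73 and 4.34, and *Sesn3* is the only member without a separate treated block.

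*Irs2* and *Pik3ip1*, which both act on PI3K, had smaller differences than *Depp1*, *Ddit4* and *Txnip*. *Irs2* (ENSMUSG00000038894.7, chr8:10984681-11008458, minus strand), an adaptor that links the insulin receptor to PI3K, ranged from 32.3 to 61.6 CPM with a median of 45.9 in vehicle-treated mice and from 67.2 to 87.9 CPM with a median of 82.9 in SK-124–treated mice. The groups did not overlap, and the log2 fold change was 0.81 (SE 0.11), from 45.9 ± 9.42 to 80.7 ± 7.86 CPM. *Pik3ip1* (ENSMUSG00000034614.14, chr11:3330401-3342971, plus strand), which encodes a membrane protein that binds and inhibits PI3K, ranged from 3.28 to 4.70 CPM (median 3.78) with vehicle and from 5.46 to 6.78 CPM (median 6.22) with SK-124. Its groups were also separate, and its log2 fold change was 0.67 (SE 0.11), at 3.84 ± 0.554 and 6.11 ± 0.555 CPM.

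Of the sestrin members, *Sesn1* was higher with SK-124 and *Sesn3* was not called. Sestrins restrain mTORC1 when amino acids are short and also act in antioxidant defense. *Sesn1* (ENSMUSG00000038332.13, chr10:41809935-41908424, plus strand) ranged from 7.05 to 10.5 CPM (median 8.58) with vehicle and from 14.3 to 20.5 CPM (median 16.1) with SK-124. The groups were separate, at 8.71 ± 1.18 and 16.8 ± 2.45 CPM, with a log2 fold change of 0.95 (SE 0.10). *Sesn3* (ENSMUSG00000032009.8, chr9:14275067-14333101, plus strand) ranged from 18.7 to 31.9 CPM (median 28.7) with vehicle and from 20.2 to 30.3 CPM (median 22.8) with SK-124. Here the groups overlapped widely, and the log2 fold change of -0.23 (SE 0.12) was not called. It was called lower when vehicle-treated mouse 3, the lowest of its group, was left out (-0.33), when SK-124–treated mouse 2 was left out, and with library totals as the only scaling (-0.36), so single libraries decided on which side of the threshold it fell.

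*Sesn2*, the sestrin outside the set, was the most abundant of the 3 per length and had the largest fold difference. It went from 45.5 ± 4.21 to 167 ± 13.0 CPM (log2 fold change 1.87, FDR = 5.97e-12, edgeR's quasi-likelihood test), and its share of the summed sestrin TPM from 68.2% ± 2.31 to 84.4% ± 1.75. The share of *Sesn3* went from 15.5% ± 1.88 to 4.46% ± 0.393 and that of *Sesn1* from 16.3% ± 0.809 to 11.1% ± 1.95, although *Sesn1* itself was higher. The summed sestrin level was 19.0 ± 3.10 TPM with vehicle and 50.2 ± 5.50 TPM with SK-124.

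*Ccng2* (ENSMUSG00000029385.14, chr5:93267257-93276231, plus strand), an unconventional cyclin associated with cell cycle arrest, ranged from 8.07 to 10.2 CPM (median 8.87) with vehicle and from 12.4 to 16.3 CPM (median 14.6) with SK-124. The groups did not overlap, at 9.06 ± 0.931 and 14.4 ± 1.29 CPM, and the log2 fold change was 0.67 (SE 0.08). Its paralog *Ccng1*, named here after its values were seen, had a log2 fold change of 0.00 and was not called, and *Ccng2* made up 8.37% ± 1.10 of the cyclin G TPM with vehicle and 11.9% ± 0.591 with SK-124. Whole kidney mixes many cell types, and a difference in the number of cells of a type and one in RNA per cell cannot be told apart in these values.

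Levels per length reordered with treatment. In vehicle-treated mice *Txnip* was highest, at 58.9 ± 11.0 TPM, and separate from *Irs2* at 6.97 ± 1.72 and *Foxo3* at 6.36 ± 1.27 TPM. *Ccng2*, *Foxo1*, *Sesn1*, *Sesn3*, *Ddit4*, *Depp1* and *Pik3ip1* followed, from 4.02 down to 2.10 TPM. Apart from *Txnip* and *Irs2*, no neighbors in that order had separate ranges. *Depp1* stood in place 9 of 10 at 2.60 ± 0.810 TPM, at percentile 33.8 of the mean TPM of all genes tested.

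In SK-124–treated mice *Txnip* remained highest at 192 ± 24.7 TPM, and *Depp1* followed in place 2 at 108 ± 21.5 TPM, at percentile 96.4. *Ddit4* moved from place 8 to place 3, at 46.5 ± 10.6 TPM, ahead of *Foxo3* at 17.3 ± 2.73 and *Irs2* at 10.9 ± 1.11 TPM. Down to *Sesn1* at 5.63 ± 1.37 TPM, each neighbor in this order was separate from the next. The neighbors whose ranges overlapped were *Sesn1* and *Ccng2*, *Ccng2* and *Foxo1*, and *Pik3ip1* and *Sesn3*. On the TPM scale, which carries no correction for the share of counts taken by the most abundant genes, 5 of 10 members kept treated mice above all vehicle-treated mice (*Depp1*, *Ddit4*, *Txnip*, *Foxo3* and *Sesn1*), where 2.01% of all genes tested had this on the same scale; nothing is read from this count either.

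The treated mice were not uniform in library composition. The 10 most abundant genes took 39.9% to 43.2% of counts in vehicle-treated mice, 44.4% to 46.8% in SK-124–treated mice 1 to 3 and 38.6% to 40.2% in SK-124–treated mice 4 to 6, and the labels name no batch. Each set of 3 treated mice was therefore set against all 6 vehicle-treated mice. The log2 fold change of *Depp1* was 5.48 with mice 1 to 3 and 5.25 with mice 4 to 6, and that of *Ddit4* was 4.11 and 4.20. *Sesn1* had the widest gap between the sets, at 0.77 and 1.11. Both sets share the vehicle-treated mice, and the members were chosen on all of these mice, so like values in the sets are no separate support.

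Markers of kidney and of neighboring cell types were read beside these values. All 11 kidney markers were measured, and their summed level was 25968 to 34890 CPM in vehicle-treated and 28171 to 36717 CPM in SK-124–treated mice, with *Aqp2*, the water channel of the collecting duct, among those called higher. The 5 adipocyte markers summed to 0.0511 to 7.58 CPM with vehicle and 0.117 to 4.03 CPM with SK-124, and none passed the filter on low counts. Those of adrenal cortex summed to 0.426 to 0.664 CPM with vehicle and 0.392 to 0.877 CPM with SK-124, with *Cyp11b2* at 0 in every mouse, and those of skeletal muscle to at most 0.592 CPM, with *Myh4* and *Ckm* at 0. Blood markers summed to 457 to 1257 CPM and 547 to 784 CPM with none called. Immune markers summed to 94.6 to 143 CPM and 93.6 to 130 CPM with *Cd79a* called lower, and endothelial markers to 120 to 173 CPM and 99.8 to 173 CPM with *Kdr* called lower. Their part in the members' values was not tested.

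The rest of the pathway was described with 7 lists of 96 genes, grouped by textbook role but drawn up with earlier results of these data known, of which 94 passed the filter. The shares called and the FDRs of list genes therefore describe the lists and are no independent test of them, here and below. By the edgeR test, adjusted over all genes, 32 (34.0%) were called higher and 5 lower, against 10.8% and 13.5% of all genes tested, and the median log2 fold change was 0.09. The 37 calls were 21 and 22 with limma on the log2(TPM + 0.1) and log2(TPM + 1) scales. The calls were spread unevenly, with the list of other FoxO targets holding 17 of the 37.

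Of other known FoxO targets, 15 of 25 (60%, against 10.8% of all genes tested) were called higher, 2 lower and 8 neither, with a median log2 fold change of 0.32. On both TPM scales 11 were called instead of 17. *Igfbp1*, a secreted binder of insulin-like growth factors, went from 5.85 ± 1.39 to 95.2 ± 34.5 CPM (log2 fold change 4.02, FDR = 1.19e-09). *Cdkn1a*, the cyclin-dependent kinase inhibitor p21, went from 9.66 ± 1.05 to 104 ± 18.2 CPM (3.43, FDR = 1.94e-12), and *Pdk4*, which restrains pyruvate oxidation, from 15.9 ± 5.22 to 84.4 ± 30.6 CPM (2.41, FDR = 4.15e-07). Each of these was separate between the groups. Of the 25 genes, 9 had groups without overlap in either direction, against 13% of all genes tested, so some of the called genes had overlapping groups. The 2 called lower were *Tnfsf10*, the death ligand TRAIL, at 25.4 ± 3.51 and 11.7 ± 2.42 CPM (-1.12, FDR = 2.47e-06), and *Ccnd1*, a cyclin that FoxO proteins are known to repress, at 107 ± 12.8 and 55.7 ± 6.14 CPM (-0.94, FDR = 3.28e-07). The antioxidant targets *Sod2* (log2 fold change 0.05, FDR = 0.438) and *Cat* (0.06, FDR = 0.495) did not pass the test. *Ccnd1*, *Sod2* and *Cat* were named after their values were seen.

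**Figure D4:**
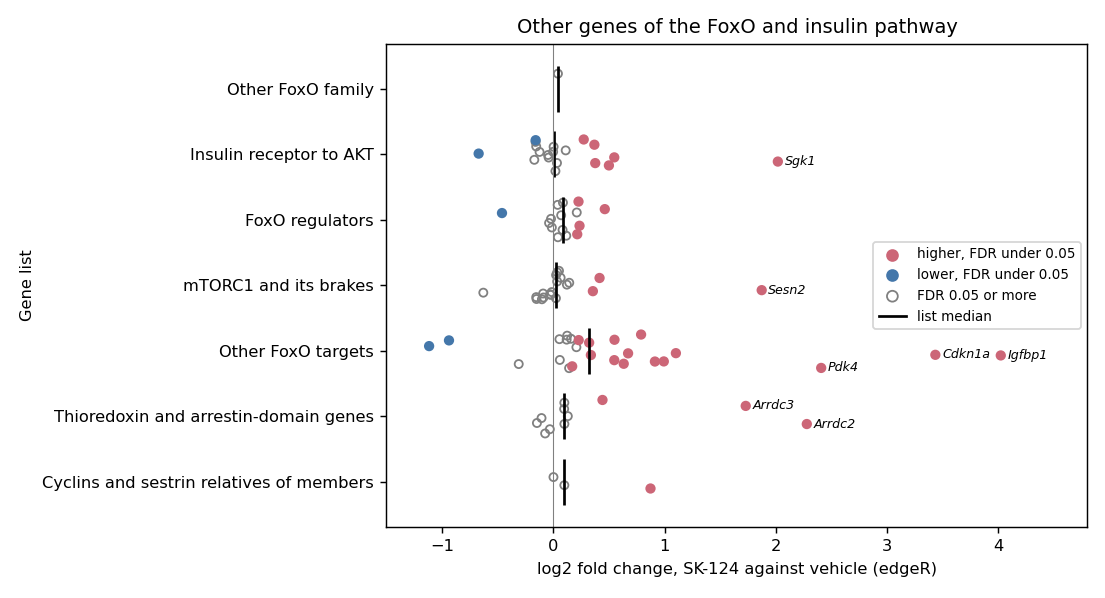
Log2 fold change (SK-124 relative to vehicle) of each tested gene of the 7 pathway lists, with 1 point per gene and filled points for an FDR under 0.05 by edgeR. The list of other FoxO targets has 15 genes called higher, led by *Igfbp1* at 4.02, while the list from insulin receptor to AKT has 6 called higher and 2 lower.

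From the insulin receptor to AKT, 6 of 19 genes (31.6%, against 10.8% of all genes tested) were called higher and 2 lower, and the median was 0.00. In either direction the share called was 42.1%, against 24.4% of all genes tested. On both TPM scales 4 were called instead of 8. The receptors *Insr* (36.7 ± 3.24 to 47.5 ± 3.47 CPM, log2 fold change 0.37, FDR = 5.33e-04) and *Igf1r* (0.50, FDR = 1.69e-04) were higher, as was the adaptor *Irs1* (0.55, FDR = 1.53e-04). *Sgk1*, a kinase related to AKT that also phosphorylates FoxO3, showed the largest difference of the list, from 22.8 ± 6.68 to 92.5 ± 13.0 CPM (2.02, FDR = 4.86e-08). *Pik3r1*, the main regulatory subunit of PI3K, was lower, at 28.2 ± 2.28 and 17.7 ± 2.17 CPM (-0.67, FDR = 7.90e-06). *Akt1* and *Akt2* had log2 fold changes of -0.05 (FDR = 0.574) and -0.00 (FDR = 0.982). *Irs2* remained the main insulin receptor substrate per length, with 89.4% ± 2.27 of the *Irs* TPM with vehicle and 91.3% ± 0.259 with SK-124, and *Irs4* was listed at 0 in every mouse.

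Among 15 regulators of FoxO proteins, 4 (26.7%, against 10.8% of all genes tested) were called higher and 1 lower. In either direction the share called was 33.3%, against 24.4% of all genes tested. The 14-3-3 genes *Ywhaz* (log2 fold change 0.46, FDR = 2.77e-04) and *Ywhah* (0.24, FDR = 0.00231) and the deacetylase *Sirt1* (0.23, FDR = 0.0171) were higher. *Skp2*, a subunit of a ubiquitin ligase that targets FoxO1, was at 2.56 ± 0.291 and 1.85 ± 0.368 CPM (-0.46, FDR = 0.0274) with overlapping groups. The 5 calls moved with the setting: 3 were called with SK-124–treated mice 1 to 3 alone, 2 with mice 4 to 6 alone, 2 with library totals, and 1 and 2 on the log2(TPM + 0.1) and log2(TPM + 1) scales.

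Of mTORC1 and its brakes, 3 of 20 genes (15%, against 10.8% of all genes tested) were called higher and 0 lower, namely *Sesn2*, *Mtor* (log2 fold change 0.42, FDR = 4.44e-04) and *Tsc1* (0.36, FDR = 0.00176), a subunit of the complex that shuts off the activator of mTORC1. In either direction the share called was also 15%, below the 24.4% of all genes tested. The 3 calls became 5 without vehicle-treated mouse 3 and 5 with library totals. *Ddit4l*, the paralog of *Ddit4*, went from 5.81 ± 0.977 to 10.7 ± 1.10 CPM (0.87, FDR = 1.22e-05). Among 11 thioredoxin and arrestin-domain genes, 3 (27.3%, against 10.8% of all genes tested) were called higher: *Arrdc2* (4.76 ± 0.613 to 23.1 ± 5.59 CPM, 2.28, FDR = 5.35e-09) and *Arrdc3* (1.73, FDR = 8.45e-10), arrestin-domain relatives of *Txnip*, and *Mlxip* (0.44, FDR = 0.00462), a glucose-sensing transcription factor. None of this list was called lower, so 27.3% were called in either direction, near the 24.4% of all genes tested.

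Genes with the profile most like that of *Depp1* and of *Ddit4* were sought over the 12 mice by the root mean square difference in log2(CPM + 0.5) after subtracting each gene's vehicle mean, among the 13011 genes whose mean reached 1 CPM. For *Depp1* the nearest were *Zbtb16* (0.455), *Ddit4* (0.940), *Eif4ebp3* (1.02), *Igfbp1* (1.05) and *Cebpd* (1.24), all in log2 units. *Zbtb16*, which encodes a zinc finger transcription factor, went from 2.19 ± 0.869 to 74.5 ± 9.16 CPM. For *Ddit4* the nearest were *Cebpd* (0.332), *Eif4ebp3* (0.378), *Tmem252* (0.438), *Igfbp1* (0.439) and *Cdkn1a* (0.512). The measure takes genes with a treatment difference of like size, so a place in these lists does not show a shared pattern within the groups. *Ddit4* is listed for *Depp1*, although the same SK-124–treated mouse was highest for *Depp1* and lowest for *Ddit4*.

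The mix of transcripts was read as well, as a description from the same mice. RSEM reports for each gene a length averaged over its transcripts by their estimated abundance, and 7 members have several annotated transcripts, while *Ddit4*, *Irs2* and *Foxo1* have 1. None of the 7 was called by limma, with 3 at an unadjusted p under 0.05 (*Depp1*, *Sesn1* and *Txnip*), where 0.0581% of 12054 genes were called and 5.69% had such a p. The members were chosen on the same contrast of these mice, so these counts are no test of them and nothing is read from them. *Sesn1* ranged from 2762 to 2856 bases (2803 ± 40.1) with vehicle and from 2675 to 2736 bases (2713 ± 26.4) with SK-124, and these groups did not overlap. Its annotated transcripts are 3809 bases from the upstream start, 2600 bases from the downstream start shown above, and a fragment of 90 bases. *Txnip* was at 2517 ± 87.2 and 2395 ± 30.4 bases, also without overlap, which 0.606% of genes tested had in either direction. *Depp1* was at 1295 ± 59.0 and 1184 ± 27.1 bases with overlapping groups. Its vehicle lengths rest on few reads, at 1.99 to 4.75 CPM against 102 to 165 CPM with SK-124. The part of this difference in depth in the lengths was not tested.

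**Figure D5:**
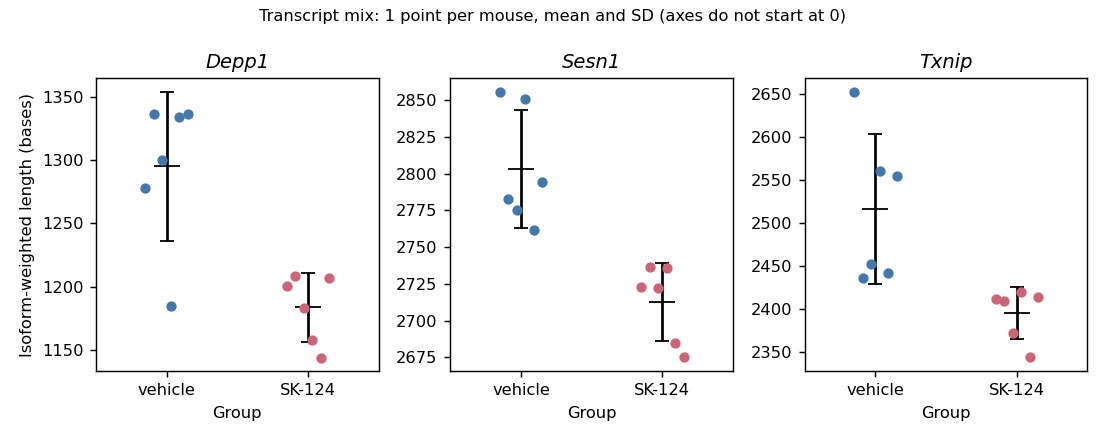
Abundance-weighted transcript length (bases) of *Depp1*, *Sesn1* and *Txnip* in each of 6 vehicle-treated and 6 SK-124–treated mice. Of the 7 members with several annotated transcripts, only these 3, with an unadjusted p under 0.05 by limma, are drawn. *Pik3ip1* and *Ccng2*, not drawn, are longer on average with SK-124, at 2044 against 1890 and 2456 against 2309 bases. *Sesn1* and *Txnip* are shorter in all treated mice than in all vehicle-treated mice, at 2713 against 2803 and 2395 against 2517 bases on average.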

How the data were processed

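RNA-Seq of whole kidney from 12 male mice (6 vehicle, 6 SK-124) was analysed. The authors deposited an RSEM gene table per mouse with expected counts, which are not normalized, and with TPM and FPKM, which RSEM scales to effective transcript length and library total. The submitters' processing notes name STAR 2.7.2b, RSEM 1.3.0, DESeq2 and mm10; the annotation and use of strand are not given in the sources used here.

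The members and gene lists were chosen with earlier results of these data known. Expected counts were rounded, scaled by TMM, filtered with filterByExpr (14159 genes) and compared with edgeR 4.0.16 (quasi-likelihood, treatment only). Lengths were compared with limma 3.58.1 on log2 values. The planned permutation tests of single members' lengths are not given, because the members' choice used the same contrast. Named besides the members were up to 4 called genes per list by absolute log2 fold change, *Foxo4*, *Foxo6*, *Insr*, *Akt1*, *Akt2* and *Sesn2*, genes overlapping a member, and the 5 profiles nearest to *Depp1* and *Ddit4*. The other overlapping genes, *9530052E02Rik*, *9930024M15Rik*, *Gm12592*, *Gm20402* and *Gm38034*, had means of at most 0.0993 CPM. The labels number the samples without naming separate animals, but the paper's heatmap of these RNA-Seq data has individual mice as columns. The p-values measure the spread between these samples, taken as 1 mouse each. Over 30 pairs within groups, chi-square per degree of freedom was at least 4.69, so none looked like a duplicated library. Alternatives were DESeq2 1.42.0, RLE, library totals, other filters, unrounded counts, limma on log2(TPM + 1) and log2(TPM + 0.1), FPKM, a replicate block, SK-124–treated mice 1 to 3 or 4 to 6 only, and each mouse left out. The scripts were tested on simulated counts. The result of 1 marker gene is not reported here. R 4.3.3 and Python 3.11.15 were used.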

Additional observations from a re-analysis of the deposited data

Results flagged for a closer look

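Among 34 sets of 6 values, 2 held a mouse far from the others of its group by Dixon's criterion, and chance alone flags about 2. *Sesn3* was at 18.7 CPM in vehicle-treated mouse 3, the lowest of its group. The abundance-weighted length of *Sesn3* was 8830 bases in vehicle-treated mouse 4, also the lowest of its group.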

How the results depend on the processing

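The members kept their direction in all 23 alternative settings. All but *Foxo1* and *Sesn3* also kept their side of the threshold. *Foxo1* was not called on either TPM scale, and *Sesn3* was called lower in 3 settings. Sizes were less steady: every member called higher had a smaller log2 fold change on both TPM scales. *Pik3ip1* went from 0.67 in counts to 0.38 (pseudocount 0.1) and 0.28 (pseudocount 1), and *Ccng2* from 0.67 to 0.41 and 0.34. Over all genes, 3453 were called, 2298 when SK-124–treated mice 4 to 6 were dropped, and 2960 to 3942 with 1 mouse left out. List genes called numbered 37, but 21 with limma on log2(TPM + 0.1) and 22 on log2(TPM + 1), and 35 to 43 with 1 mouse left out. By list, TPM gave 4 calls from insulin receptor to AKT (8 in counts), 1 and 2 among FoxO regulators (5) and 11 among other targets (17), and library totals gave 2 among FoxO regulators and 5 among mTORC1 genes (3). Length calls numbered 7, and 3 to 13 with 1 mouse left out: 13 without vehicle-treated mouse 3, 4 without vehicle-treated mice 4 or 5 or SK-124–treated mouse 2, and 3 without vehicle-treated mouse 2 or SK-124–treated mice 5 or 6. Scaling by library totals put the median log2 fold change over genes at -0.12, and TPM at -0.14 (pseudocount 0.1) and -0.11 (pseudocount 1), and the share of calls that were higher fell from 44.5% to 20.3%, 19.0% and 19.0%. The deviations of same-numbered mice from their group means had weak correlations, from -0.131 to 0.217, highest for numbers 2 and 3. Weak correlations cannot exclude a pairing by number, and none was assumed. With the replicate number as a block, 3466 genes, 37 list genes and 1 length were called. Depth limits *Foxo6* and the vehicle values of *Depp1*, whose counts were low.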
